A study of Mus musculus with 8 samples.

Results

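The comparison described here is that of CD45RBlow with CD45RBhigh T cells of wild-type mice. It rests on 4 of the 8 arrays of the study, 2 from CD45RBlow and 2 from CD45RBhigh cells, chosen by their titles. Arrays were paired by the number in the title, where a title without a number was read as 1. The cells were CD4+CD25- splenocytes of C57BL/6 mice aged 6 to 8 weeks, sorted by flow cytometry into CD45RBhigh and CD45RBlow fractions. Both fractions were stimulated on plates coated with antibodies to CD3 and CD28 before RNA was taken. The time on the plates is 48 h in the sample protocols but 2 h in the design text, and which of them holds is not known here. The other 4 arrays, from the same 2 fractions of CCR2-/- mice, which lack the chemokine receptor CCR2, entered only to estimate the spread. The labels give neither the number of mice behind an array nor whether cells were pooled, and they do not say that replicates came from separate animals. Genes of the sex chromosomes, given below, differed between the numbers, so the arrays numbered 1 and 2 did not hold the same RNA. Number 2 held RNA of both sexes, but how many animals stand behind either number is not known. The p-values therefore measure only the spread between these samples, part of which may be technical.

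CD45RB is a splice form of the leukocyte phosphatase CD45, encoded by Ptprc, and its surface level separates CD4+ T cells by experience. CD45RBhigh cells are mostly naive, whereas the CD45RBlow fraction holds antigen-experienced cells together with regulatory T cells. CD45RBhigh cells cause colitis when moved into mice without lymphocytes, and regulatory cells of the CD45RBlow fraction prevent it, in part through the cytokine interleukin 10. The sort removed cells with surface CD25, the interleukin 2 receptor alpha chain that most regulatory T cells carry.

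Expression is given as the deposited log2 value after RMA (robust multi-array average), in which 1 unit is a doubling, and a difference is CD45RBlow minus CD45RBhigh. Array medians in wild type lay between 4.92 and 4.96. Correlation over 41034 transcript clusters was 0.992 between the 2 CD45RBhigh arrays and 0.994 between the 2 CD45RBlow arrays. The arrays numbered 1 and 2 differed in Xist, the RNA that silences an X chromosome in females: it was at 4.45 and 4.52 on the number 1 arrays and at 12.07 and 11.74 on the number 2 arrays. Kdm5d, a Y-linked gene, was at 9.10 and 8.83 against 7.75 and 7.78. The difference thus lies between pairs and not between the cell fractions. On the number 2 arrays both Xist and Kdm5d were well above the array medians, so these arrays held RNA of both sexes. On the number 1 arrays Kdm5d was above the medians and Xist below them. T cell genes were high on all 4 arrays, with Cd3e between 12.36 and 12.48 and Cd4 between 11.58 and 11.66. Of genes that mark other blood cells, the monocyte gene Lyz2 was at most 4.03, the NK cell gene Ncr1 at most 4.47 and the CD8 chain Cd8a at most 4.70, all below the array medians. Other such markers were well above the medians. The B cell gene Ighm was at 10.47 and 10.999 in CD45RBhigh and at 9.69 and 9.93 in CD45RBlow cells (difference -0.93, adjusted p = 0.0786). The monocyte gene Cd68 lay between 7.05 and 7.62, and the dendritic cell gene Naaa between 6.44 and 7.43. Of 58 measured markers of other cell types 22 reached the level for testing. Of 32 tested markers, those of CD4 T cells included, 0 passed. As only 0.77% of all genes tested passed, this count does not show that the fractions held the same other cells. The other CD8 chain, Cd8b1, was at 8.22 and 7.82 in CD45RBhigh cells and at 6.97 and 7.26 in CD45RBlow cells, a difference of -0.91 that did not pass (adjusted p = 0.251). In sorted populations measured in bulk, fewer cells of a type and less RNA per cell cannot be told apart.

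After stimulation, wild-type CD45RBlow cells held far more RNA for interleukin 10, Foxp3 and the transcription factors Ikzf2 and Maf than CD45RBhigh cells. They held less RNA for amino acid transporters and enzymes and for several genes of the interferon response. Of 13508 genes tested, 104 passed an adjusted p of 0.05 (Benjamini-Hochberg), which is 0.77% of them. In CD45RBlow cells 38 genes were higher, or 0.281%, and 66 were lower, or 0.489%. With each array centred on its median, an alternative chosen after seeing the data that moves every difference by 0.06, the calls were 55 higher and 58 lower. Called differences were at least 0.70 in size, and the median gene differed by -0.01. The 2 groups did not overlap for 103 of the 104 genes, against 46.1% of all genes tested. The exception was Srgap3, at 6.53 and 4.93 in CD45RBhigh and at 7.54 and 6.34 in CD45RBlow cells. The calls were made on these same values, so the separation of called genes was largely set in advance.

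The model removed differences between the replicate numbers, and without that block 12 genes passed, 0.0888% of those tested. All 12 were among the 104: Maf, Il1r2, Erg, Timp1, Cd200r1 and Spx were higher, and Phf11b, Oas1b, H2-Q5, Gramd3 and 2 uncharacterised gene models were lower in CD45RBlow cells. Single arrays also moved the count: it was 12 without CD45RBhigh 1, 9 without CD45RBhigh 2, 4 without CD45RBlow 1, 10 without CD45RBlow 2, 189 without either CCR2-/- CD45RBhigh array and 59 without either CCR2-/- CD45RBlow array. Maf and Il1r2, together with 1 of those gene models, passed in each of these 8 fits.

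**Figure D1:**
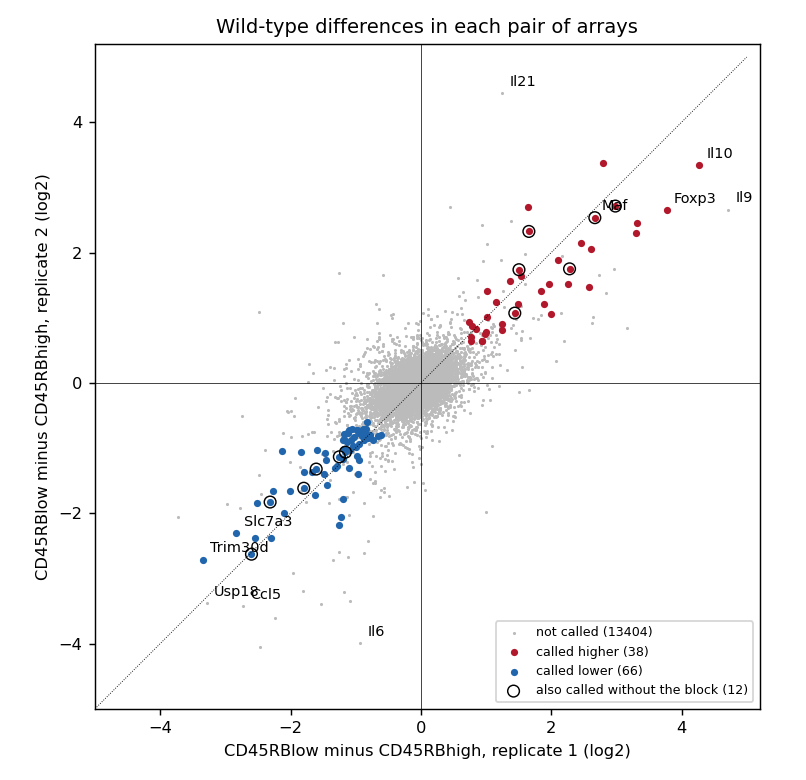
Difference between CD45RBlow and CD45RBhigh cells (log2) in replicate 1 (x axis) and replicate 2 (y axis) for each of 13508 genes. Red and blue points are the 38 higher and 66 lower genes that passed, rings mark the 12 that also passed without the block, and the dotted line marks equal differences. The called genes lie near that line, as a test with the block favours genes whose pairs differ alike, while Il21 and Il6 lie far from it.

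Regulatory T cell genes made up the list with the most increases. Of 20 genes on the regulatory T cell list, all tested, 7 rose in CD45RBlow cells and 1 fell. Thus 40% were called, against 0.77% of all genes tested. The median difference of the list was 0.68 against -0.01 over all genes. Differences were above 0 in both pairs for 14 of the 20, against 29.7% of all genes tested. Il10, the cytokine by which regulatory cells restrain inflammation, was at 5.33 and 5.00 on the CD45RBhigh arrays and at 9.60 and 8.34 on the CD45RBlow arrays. It thus stood near the middle of the array in 1 fraction and far above it in the other, and the groups were separated by 3.01 at their closest. The mean difference was 3.81 (standard error 0.38, 95% confidence interval 2.91 to 4.71, adjusted p = 0.015), or 13.99-fold.

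Foxp3, the transcription factor that defines regulatory T cells, was at 5.37 and 5.79 in CD45RBhigh and at 9.14 and 8.44 in CD45RBlow cells (difference 3.21, adjusted p = 0.0181). Ikzf2, which encodes the factor Helios, was at 5.35 and 5.26 against 8.66 and 7.72 (difference 2.88, adjusted p = 0.00742). Itgb8, the integrin chain that activates latent TGF-beta, was at 5.13 and 5.00 against 8.42 and 7.30 (difference 2.80, adjusted p = 0.0143). In all of these, replicate 1 of the CD45RBlow cells held the higher value.

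Nt5e and Entpd1 encode CD73 and CD39, the surface enzymes that turn ATP into adenosine. Nt5e was at 4.56 and 4.41 in CD45RBhigh and at 7.14 and 5.88 in CD45RBlow cells, and rose by 2.03 (adjusted p = 0.0455). Entpd1 rose by 0.82, from 4.76 and 4.34 to 5.54 and 5.21 (adjusted p = 0.027). The receptor gene Gpr83 rose by 1.59 (adjusted p = 0.0181). Against this direction, Ebi3, a subunit of interleukins 27 and 35, fell by 0.79, from 8.60 and 9.0 to 7.83 and 8.20 (adjusted p = 0.0348).

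The other 12 genes of the list did not pass. They include Ctla4, an inhibitory receptor, with a difference of 0.98 (adjusted p = 0.192), and Lrrc32, which holds TGF-beta on the cell surface, with 1.18 (adjusted p = 0.24). Il2ra, which encodes CD25, was at 12.50 and 12.25 in CD45RBhigh and at 12.45 and 12.43 in CD45RBlow cells, a difference of 0.07 (adjusted p = 0.88). The activation receptor genes Tnfrsf4 and Tnfrsf18 lay within 0.10 of each other between the fractions. Without the replicate block 0 of the 20 genes passed, and without CD45RBlow 1 also 0; without any 1 of the other 3 wild-type arrays 2 passed, and without either CCR2-/- CD45RBlow array 5.

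**Figure D2:**
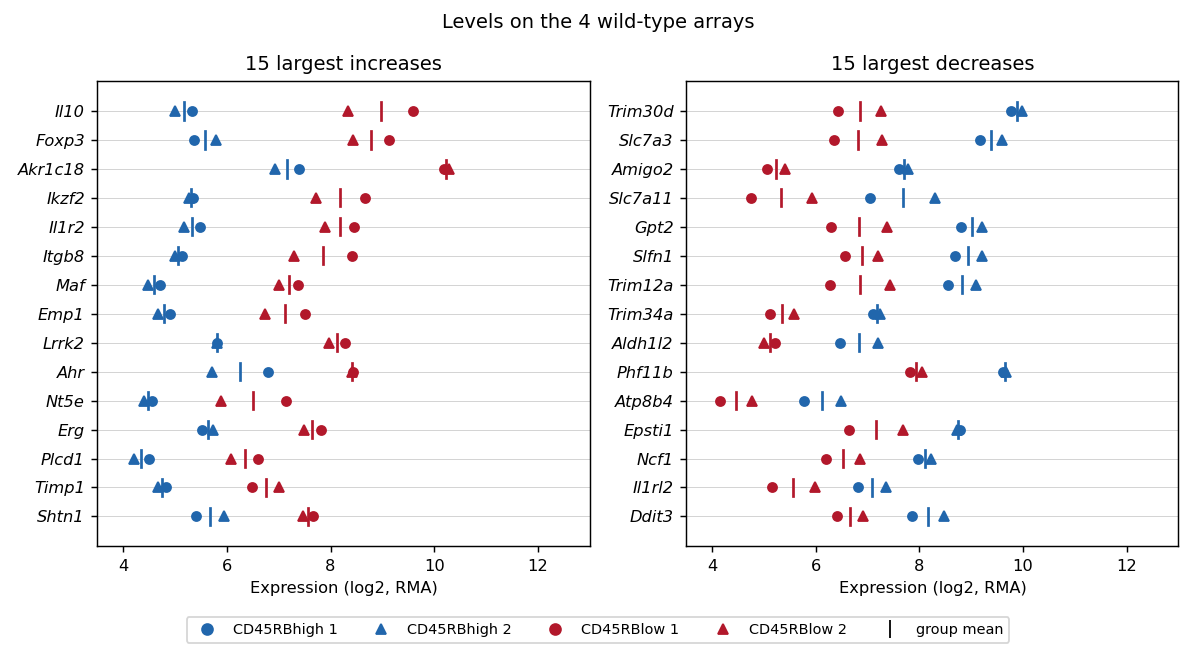
Expression (log2) on the 4 wild-type arrays of the 15 genes with the largest increase and the 15 with the largest decrease that passed the test. Blue is CD45RBhigh and red CD45RBlow, circles are replicate 1, triangles replicate 2 and bars the group means; genes were picked among those whose groups do not overlap, and the differences run from Il10 (difference 3.81) to Trim30d (difference -3.03).

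Some genes of type 2 helper cells also rose in CD45RBlow cells. Of 12 tested genes on the list for Th2 and Th9 cells, 3 rose and 0 fell, so that 25% were called against 0.77% of all genes. The median difference was 0.93, and 1 of the 3 called genes, Maf, passed without the block. Maf, a factor that drives Il4 and Il10 transcription, was at 4.71 and 4.47 in CD45RBhigh and at 7.38 and 7.01 in CD45RBlow cells. Its difference of 2.60 (standard error 0.11) had the smallest adjusted p of all genes, 0.000461, shared with 1 uncharacterised gene model. Il4, the lead cytokine of Th2 cells, rose by 1.35, from 5.66 and 5.37 to 7.16 and 6.58 (adjusted p = 0.0171). The Th2 chemokine receptor gene Ccr4 rose by 0.89, from 9.71 and 9.86 to 10.71 and 10.65 (adjusted p = 0.0388).

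Il9 showed a large difference that did not pass: it was at 5.41 and 5.68 in CD45RBhigh and at 10.12 and 8.34 in CD45RBlow cells (difference 3.69, adjusted p = 0.0915). Differences of Il13 and Il5 were 1.61 (adjusted p = 0.235) and 0.96 (adjusted p = 0.0826). The groups did not overlap for these genes, which also holds for 46.1% of all genes tested. Gata3, the master regulator of Th2 cells, differed by 0.42 (adjusted p = 0.235).

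Among 29 T cell cytokine genes, Il10 and Il4 rose (6.9%, against 0.281% of all genes) and 0 fell. Differences were above 0 in both pairs for 16 of the 29, against 29.7% of all genes. Ifng, the cytokine of Th1 cells, was at 8.79 and 8.34 in CD45RBhigh and at 10.80 and 9.39 in CD45RBlow cells (difference 1.53, adjusted p = 0.163). Il17a, the cytokine of Th17 cells, was at 3.92 and 4.05 against 5.99 and 4.39 (difference 1.21, adjusted p = 0.244). The groups did not overlap for either gene, as for 46.1% of all genes tested, but the 2 CD45RBlow arrays lay more than 1 unit apart. Il17a was below the array median on both CD45RBhigh arrays and on CD45RBlow 2. Il2, the growth factor of activated T cells, was near the top of the scale on all 4 arrays, at 12.39 and 12.68 against 12.58 and 12.63 (adjusted p = 0.967).

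Lists for the other helper types held 1 called gene each, where 0.77% of all genes tested passed. In the Th17 list of 11 tested genes, Ahr rose by 2.17, from 6.80 and 5.71 to 8.43 and 8.41 (adjusted p = 0.0432); it encodes the aryl hydrocarbon receptor, a ligand-activated factor. The list's median difference was 0.71, and Ccr6, a chemokine receptor gene of Th17 cells, stood at 1.39 (adjusted p = 0.0869). In the Th1 list of 14 tested genes, the chemokine receptor gene Cxcr3 rose by 1.20, from 6.83 and 6.33 to 7.98 and 7.57 (adjusted p = 0.0346), and the median was 0.11. In the follicular helper list of 12 tested genes, Sostdc1, which encodes a secreted BMP and Wnt antagonist, rose by 1.03 (adjusted p = 0.0284), and the median was 0.14. None of these 3 genes passed without the block.

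**Figure D3:**
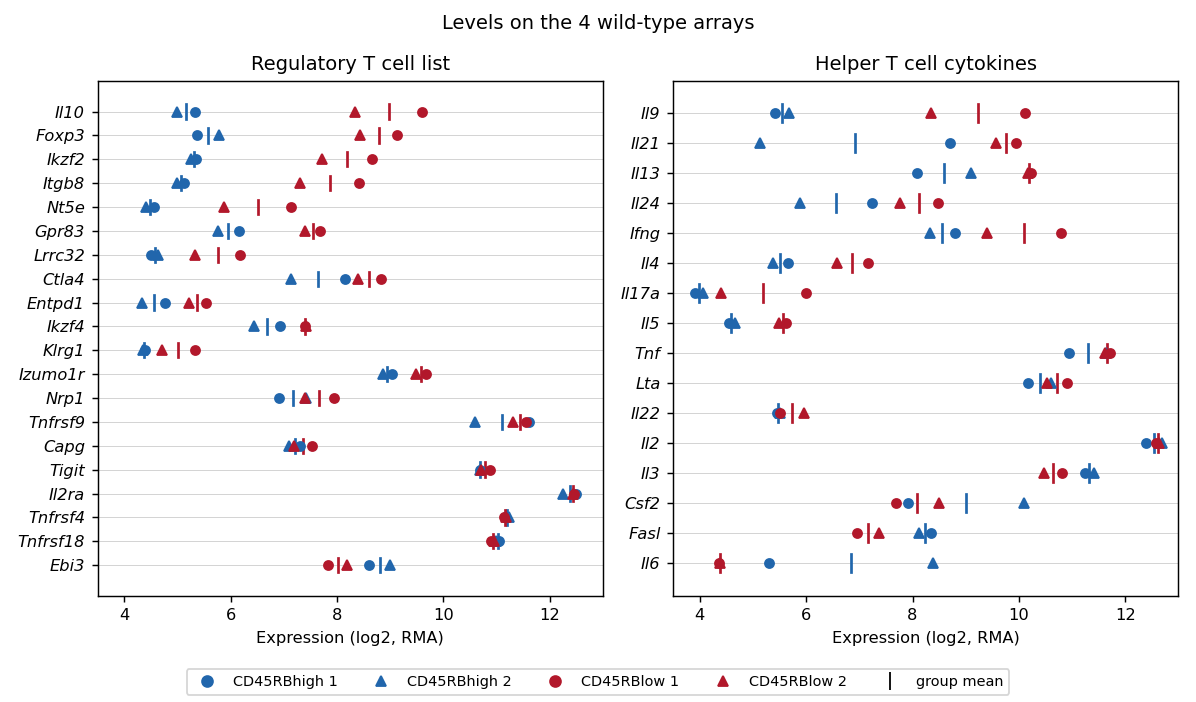
Expression (log2) on the 4 wild-type arrays of the 20 genes of the regulatory T cell list (left) and of helper T cell cytokines (right), ordered by difference. Blue is CD45RBhigh and red CD45RBlow, circles are replicate 1, triangles replicate 2 and bars the group means; Il10 and Foxp3 separate the fractions by 3.81 and 3.21, while Il2ra and Il2 differ by 0.07 each.

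Several of the largest increases lay outside the helper and regulatory T cell lists. Il1r2, the decoy receptor that binds interleukin 1 without signalling, was at 5.48 and 5.18 in CD45RBhigh and at 8.46 and 7.89 in CD45RBlow cells (difference 2.85, adjusted p = 0.00107). It was the called gene among 8 tested of the interleukin 1 family list (12.5%, against 0.77% of all genes). Akr1c18, an enzyme that breaks down progesterone, was at 7.39 and 6.92 against 10.18 and 10.29 (difference 3.08, adjusted p = 0.0157). The remaining genes of the 15 largest increases were the membrane protein gene Emp1 (2.33), the kinase gene Lrrk2 (2.30), the ETS factor gene Erg (2.02), the phospholipase gene Plcd1 (1.99), the metalloproteinase inhibitor gene Timp1 (1.99) and Shtn1 (1.88). A dimmer second cluster of Emp1 differed by -0.15, so the increase of that gene was seen on its brightest cluster only, whereas the second cluster of Maf differed by 1.11. Dimmer second clusters of other genes named here as changed also differed less than the brightest one: by 0.42 for Socs2, by -0.04 for Slc7a11 and by -0.12 for Ebi3. Mean levels of these second clusters were 4.69 for Emp1, 4.50 for Maf, 4.87 for Socs2, 4.01 for Slc7a11 and 4.97 for Ebi3. Those levels are near or below the array medians, where a change can be missed.

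Memory and effector genes included 5 that rose among 24 tested (20.8%, against 0.281% of all genes), and 0 that fell, with a median of 0.29. Besides Maf and Cxcr3, these were Prdm1, Id2 and Lgals3. Differences were above 0 in both pairs for 12 of the 24 and below 0 in both for 4, against 29.7% and 34.7% of all genes. The largest difference of the list was a decrease that did not pass, that of Ccl5 (-3.07, adjusted p = 0.0771). Prdm1, which encodes the effector factor Blimp-1, rose by 1.74, from 5.16 and 4.94 to 7.12 and 6.45 (adjusted p = 0.0143). Id2, an inhibitor of E proteins, rose by 1.47, from 9.89 and 9.44 to 11.26 and 10.996 (adjusted p = 0.0205). In the list of inhibitory receptors, 3 of 15 rose: Nt5e, Entpd1 and Cd200r1, the receptor for CD200, which rose by 1.62 (adjusted p = 0.00742). Socs2, an inhibitor of cytokine signalling, rose by 1.63 (adjusted p = 0.0089) among 16 tested genes around interleukin 2 and STAT5, and the TNF receptor gene Tnfrsf1b rose by 0.79 (adjusted p = 0.0453) among 14 costimulation genes.

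Of 20 tested genes of naive T cells, 3 fell and 0 rose, so that 15% were called lower against 0.489% of all genes, while the median difference was -0.05 against -0.01. Ccr7, the receptor that brings naive cells into lymph nodes, was at 11.98 and 12.004 in CD45RBhigh and at 10.80 and 11.22 in CD45RBlow cells, and fell by 0.98 (adjusted p = 0.042). Dapl1 fell by 1.46, from 11.79 and 11.75 to 9.95 and 10.68 (adjusted p = 0.0348), and the actin crosslinker gene Actn1 by 0.85 (adjusted p = 0.0348). For factors of the naive state, the difference was -0.07 for Lef1 (adjusted p = 0.881) and 0.01 for Klf2 (adjusted p = 0.986). Without the block 0 of the 20 passed.

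The gene that carries the sorted epitope, Ptprc, was at 12.47 and 12.32 in CD45RBhigh and at 12.37 and 12.41 in CD45RBlow cells. Its difference of -0.01 (adjusted p = 0.992), which was 0.06 with the arrays centred on their medians, is that of the whole transcript cluster and does not tell splice forms apart. Cd44, a memory marker, was at 8.79 and 9.04 against 8.92 and 8.69 (adjusted p = 0.824). Ccr2, the gene deleted in the CCR2-/- mice, was between 4.26 and 4.61 on the 4 wild-type arrays, below the array medians, with a difference of 0.21 (adjusted p = 0.681).

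The largest called group among the decreases was the amino acid response. The kinase GCN2 senses missing amino acids and the factor ATF4 then induces amino acid transporters and synthetic enzymes; stress of the endoplasmic reticulum also acts through ATF4. Of 32 tested genes on the list for this response, 9 fell in CD45RBlow cells (28.1%, against 0.489% of all genes) and 0 rose. Differences were below 0 in both pairs for 30 of the 32, against 34.7% of all genes tested, and the median was -0.55.

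Of the transporters, 3 fell. Slc7a3, which imports cationic amino acids such as arginine, was at 9.17 and 9.59 in CD45RBhigh and at 6.34 and 7.28 in CD45RBlow cells, and fell by 2.57 (adjusted p = 0.0416). Slc7a11, the cystine importer, was at 7.05 and 8.30 against 4.75 and 5.92, and fell by 2.34 (adjusted p = 0.0143). Slc1a4, a carrier of neutral amino acids, fell by 1.31 (adjusted p = 0.0143). In both Slc7a3 and Slc7a11 the number 2 array of each fraction was the higher one, and the difference between the fractions was nearly the same in either pair for Slc7a11.

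Among the enzymes, 4 fell. Gpt2, a mitochondrial alanine aminotransferase, fell by 2.18, from 8.80 and 9.21 to 6.29 and 7.37 (adjusted p = 0.0346). Aldh1l2, an enzyme of mitochondrial folate metabolism, fell by 1.72 (adjusted p = 0.027). Cth, which makes cysteine from cystathionine, fell by 1.49, from 10.29 and 10.81 to 9.09 and 9.04 (adjusted p = 0.0191), and Psph, the last enzyme of serine synthesis, by 0.98 (adjusted p = 0.0263). Ddit3, which encodes the stress factor CHOP, was at 7.85 and 8.47 against 6.42 and 6.90, and fell by 1.5 (adjusted p = 0.00742). Vldlr, a lipoprotein receptor, fell by 1.27 (adjusted p = 0.0311).

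Chac1, which degrades glutathione, had the largest difference of the list, -2.90, at 8.36 and 8.67 against 4.62 and 6.603, and did not pass (adjusted p = 0.0535). Asns, the asparagine synthetase, was at 10.85 and 11.04 against 9.51 and 10.00 (adjusted p = 0.0684). Atf4 itself was at 9.47 and 9.65 against 9.19 and 9.37 (difference -0.28, adjusted p = 0.4). Of 17 tested chaperone genes of the endoplasmic reticulum, 1 fell (5.88%, against 0.489% of all genes), and the list's median was -0.03. The called gene was Herpud1, which takes part in protein disposal in the reticulum (difference -1.01, adjusted p = 0.0311).

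Called genes of the amino acid response did not pass without the block, which left 0 of the 32, and 0 passed when any 1 of the wild-type arrays was left out. The number was 13 in a fit of the 4 wild-type arrays alone, 16 with the prior variance fitted as a trend on mean level and 17 with array weights.

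ATF4 binds DNA together with C/EBP factors at an element whose core can be spelled TGATGNAA, and the promoters are printed because the members moved together. In the RefSeq promoter table of GRCm38.p6, 8 of 27 list members with an entry held this core on either strand within the 250 bases before the start, which is 29.6%, against 3.1% of 10547 tested genes with an entry and 3.5% of 32851 promoters. Of 6 called members with an entry, 2 held it (33.3%), Slc7a11 and Vldlr. The list names genes of this response, so its share describes the list and not these arrays. Of all called genes with an entry, 5 of 51 lower ones (9.8%) and 0 of 29 higher ones held the core. Capitals mark the core or its reverse complement, the sequence runs along the gene's strand up to the base before the start, and a match is a description of these letters only. The Slc7a11 window is chr3:50443614-50443863 on the minus strand, with 2 matches that begin 66 and 47 bases before the start, and the Vldlr window is chr19:27216770-27217019 on the plus strand.
Slc7a11: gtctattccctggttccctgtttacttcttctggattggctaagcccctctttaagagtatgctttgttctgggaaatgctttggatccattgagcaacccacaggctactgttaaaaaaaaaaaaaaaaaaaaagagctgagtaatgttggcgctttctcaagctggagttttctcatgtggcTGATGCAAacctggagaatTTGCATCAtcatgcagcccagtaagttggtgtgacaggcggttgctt
Vldlr: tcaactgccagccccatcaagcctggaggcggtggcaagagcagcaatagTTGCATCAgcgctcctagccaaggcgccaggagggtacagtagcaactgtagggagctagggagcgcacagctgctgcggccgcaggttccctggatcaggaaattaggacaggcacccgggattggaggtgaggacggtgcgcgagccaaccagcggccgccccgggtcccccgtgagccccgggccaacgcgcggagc

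Interferon response genes were lower in CD45RBlow cells almost without exception, yet few passed. Interferons induce antiviral genes, and T cells hold a basal level of this response. Of 36 tested genes on the list, 3 fell (8.33%, against 0.489% of all genes) and 0 rose. The difference was below 0 in both pairs for 35 of the 36, against the 34.7% of all genes given above, and the exception was Ifit3, at 0.18. The median was -1.24 (-0.94 in pair 1 and -1.34 in pair 2).

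Trim30d, of the Trim family of ubiquitin ligases, was at 9.78 and 9.97 in CD45RBhigh and at 6.43 and 7.26 in CD45RBlow cells, and fell by 3.03 (standard error 0.41, adjusted p = 0.0346), the largest decrease that passed. Phf11b, an interferon-induced PHD finger gene, was at 9.62 and 9.67 against 7.82 and 8.06, and fell by 1.71 (adjusted p = 0.00444). Oas1b, of the oligoadenylate synthetase family of RNA sensors, was at 8.19 and 7.91 against 6.59 on both CD45RBlow arrays, and fell by 1.46 (adjusted p = 0.0191). Replicates of these last 2 genes lay within 0.28 of each other in each fraction, and both passed without the block, whereas Trim30d did not.

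Other members with differences of -1.90 or beyond did not pass. Trim30a, a close relative of Trim30d, was at 9.2 and 9.37 against 6.86 and 7.02 (difference -2.35, adjusted p = 0.0572), and Oas3, of the same family as Oas1b, at 8.60 and 8.78 against 6.01 and 6.24 (difference -2.56, adjusted p = 0.0684). Replicates of both lay within 0.24 of each other on the wild-type arrays. Usp18, the protease that removes ISG15, was at 9.90 and 11.02 against 6.61 and 7.64 (difference -3.33, adjusted p = 0.0724), the largest decrease of all genes tested. Ifit1, an antiviral RNA-binding protein gene, was at 7.05 and 8.96 against 4.81 and 5.36 (difference -2.92, adjusted p = 0.108). Irf7, which amplifies interferon induction, was at 5.67 and 7.13 against 4.55 and 4.46 (difference -1.90, adjusted p = 0.427). In Usp18, Ifit1 and Irf7 the CD45RBhigh array numbered 2 was the highest of the 4 and lay more than 1 unit above its replicate. The groups did not overlap, as for 46.1% of all genes tested.

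The count of called interferon genes turned on which arrays set the spread. In a fit of the 4 wild-type arrays alone 20 of the 36 fell, with array weights, which gave the wild-type arrays 1.43 to 1.48 and the CCR2-/- arrays 0.67 to 0.71, 15 fell, and without either CCR2-/- CD45RBhigh array 16 fell. Without either CCR2-/- CD45RBlow array 2 fell, without CD45RBlow 1 none (0 of 36) did, and 1 did when any 1 of the remaining wild-type arrays was dropped.

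Several of these genes have near-identical relatives (the Trim30, Trim12 and Trim34, Phf11, Oas1, Slfn, Gbp and H2-Q genes), and the deposited values do not show how far a cluster's probes bind to a relative. Trim12a and Trim34a, 2 further Trim genes outside the list, fell by 1.96 (adjusted p = 0.0143) and 1.83 (adjusted p = 0.0194), and Slfn1, of the Schlafen family, by 2.05 (adjusted p = 0.0191). A dimmer second cluster of Trim34a differed by -0.37.

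The interferon-stimulated response element, bound by IRF factors, has a core that can be spelled as GAAA, any 2 bases, and GAAA again. It was searched in the same windows on both strands, and 14 of 25 list members with an entry held it, 56.0%, against 3.4% of tested genes and 3.0% of all promoters in the table. Trim30d and Phf11b, the called members with an entry, both held it. The list names interferon response genes, so its share describes the list and not these arrays. Of all called genes with an entry, 5 of 51 lower ones (9.8%) and 2 of 29 higher ones (6.9%) held the core. The Trim30d window is chr7:104507850-104508099 on the minus strand, with a match that begins 41 bases before the start, and the Phf11b window is chr14:59341331-59341580 on the minus strand, with a match that begins 50 bases before it. Capitals again mark the core or its reverse complement.
Trim30d: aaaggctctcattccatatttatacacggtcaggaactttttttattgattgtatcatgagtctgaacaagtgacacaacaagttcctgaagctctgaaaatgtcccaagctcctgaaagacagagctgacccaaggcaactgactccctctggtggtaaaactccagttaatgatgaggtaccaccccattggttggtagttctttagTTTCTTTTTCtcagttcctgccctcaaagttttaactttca
Phf11b: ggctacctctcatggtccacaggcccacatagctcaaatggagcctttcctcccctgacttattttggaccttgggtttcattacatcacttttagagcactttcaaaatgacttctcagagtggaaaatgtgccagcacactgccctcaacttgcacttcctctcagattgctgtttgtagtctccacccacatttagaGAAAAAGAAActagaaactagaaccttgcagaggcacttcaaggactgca

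**Figure D4:**
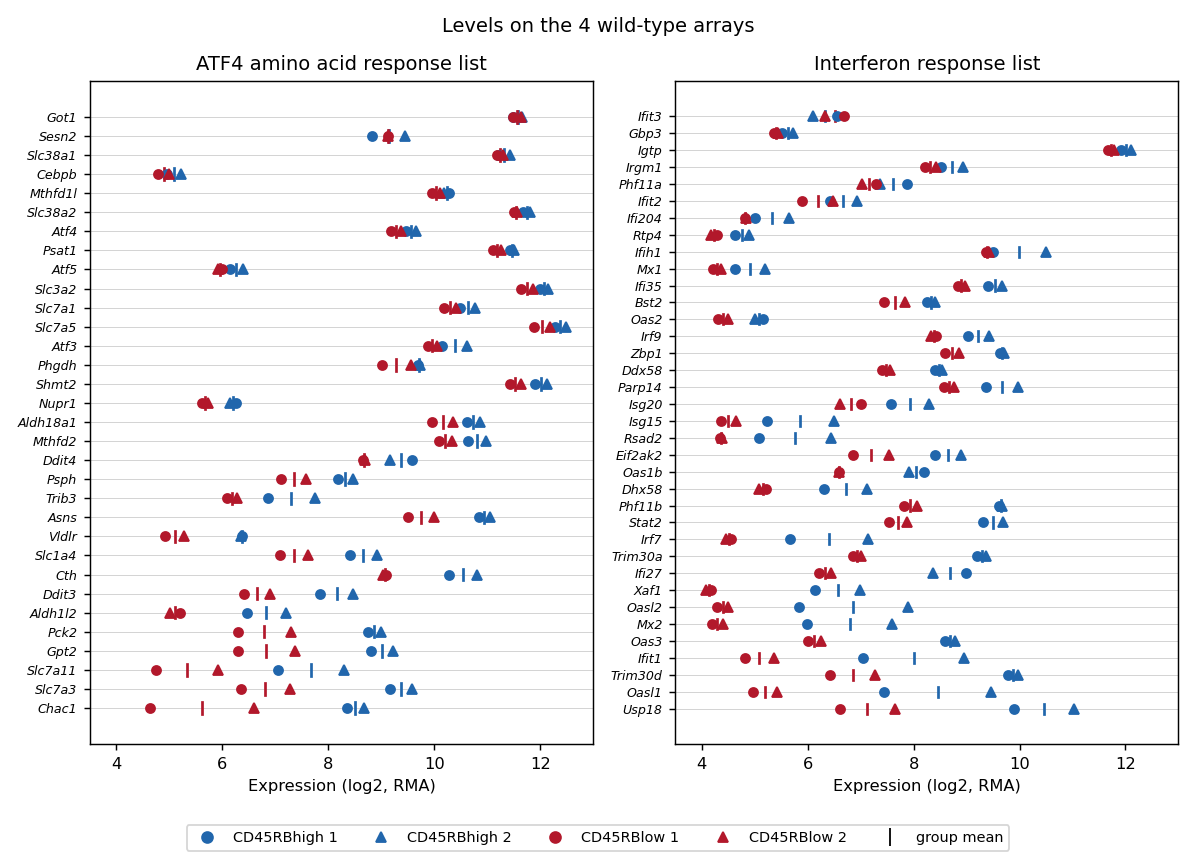
Expression (log2) on the 4 wild-type arrays of the tested genes of the ATF4 amino acid response list (left, 32 genes) and the interferon response list (right, 36 genes), ordered by difference. Blue is CD45RBhigh and red CD45RBlow, circles are replicate 1, triangles replicate 2 and bars the group means; red lies to the left of blue for most genes, and the 2 blue points lie far apart for several interferon genes such as Ifit1 (7.05 and 8.96).

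Antigen presentation genes showed smaller differences. Of 20 tested genes of MHC class I and antigen processing 1 fell (5%, against 0.489% of all genes). This was H2-Q5, a nonclassical class I gene, which went from 9.39 and 9.37 to 8.14 and 8.24 (difference -1.19, adjusted p = 0.0157). A dimmer cluster of it differed by -0.39. The classical gene H2-K1 and B2m, the light chain of all class I molecules, differed by -0.12 (adjusted p = 0.711) and -0.07 (adjusted p = 0.881).

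Of 9 tested MHC class II genes 0 passed, and the median was -0.62. Only 0.77% of all genes tested passed, so the counts of 0 in this paragraph say little about these lists. Of 11 tested genes of the MS4A family of membrane proteins 0 passed, and the median was -0.79; Ms4a4b, which is expressed in T cells, was at 7.14 and 6.13 in CD45RBhigh and at 4.17 and 4.27 in CD45RBlow cells (difference -2.41, adjusted p = 0.0563). Of 8 tested B cell markers, 5 differed below 0 in both pairs, against 34.7% of all genes tested, and 0 above 0 in both. Their median difference was -0.65 in pair 1 and -0.08 in pair 2. Their mean level over 11 measured genes was 5.48 and 4.98 in CD45RBhigh and 4.87 in both CD45RBlow arrays, with Fcer2a at 6.996 and 5.33 against 4.94 and 4.90, Cd79a at 4.99 and 3.90 against 3.85 and 3.91, and 0 of the 8 tested passed. Their part in the class II and MS4A values was not tested.

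Chemokine genes gave 0 calls among 11 tested, which says little where only 0.77% of all genes tested passed. Ccl5, a chemokine of effector T cells, was at 10.54 and 11.53 in CD45RBhigh and at 7.81 and 8.11 in CD45RBlow cells (difference -3.07, adjusted p = 0.0771). Ccl20, the ligand of CCR6, ran the other way, at 5.57 and 5.67 against 8.30 and 7.34 (difference 2.20, adjusted p = 0.115).

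Growth and activation lists held few called genes, as did all genes tested, of which 0.77% passed. Among 31 tested genes of the cell cycle and DNA replication 0 passed and the median was -0.02, with the cyclin gene Ccnd3 at -0.37 (adjusted p = 0.393). For 19 genes of glycolysis and hypoxia 0 passed and the median was 0.00, and for 22 genes of sterol and fatty acid synthesis 0 passed and the median was -0.21. Of 22 early T cell activation genes 0 passed, with a median of -0.18; Nr4a1, an immediate response gene of the T cell receptor, differed by -0.89 (adjusted p = 0.172) and Egr2, another, by 0.63 (adjusted p = 0.172). Counts of 0 here come from limma's fit over all genes, in which 1597 genes had an unadjusted p below 0.05. In the apoptosis list of 19 tested genes the death receptor gene Fas fell by 0.80 (adjusted p = 0.0483), and among 14 cytotoxicity genes the protease inhibitor gene Serpinb6b fell by 1.04 (adjusted p = 0.0253).

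**Figure D5:**
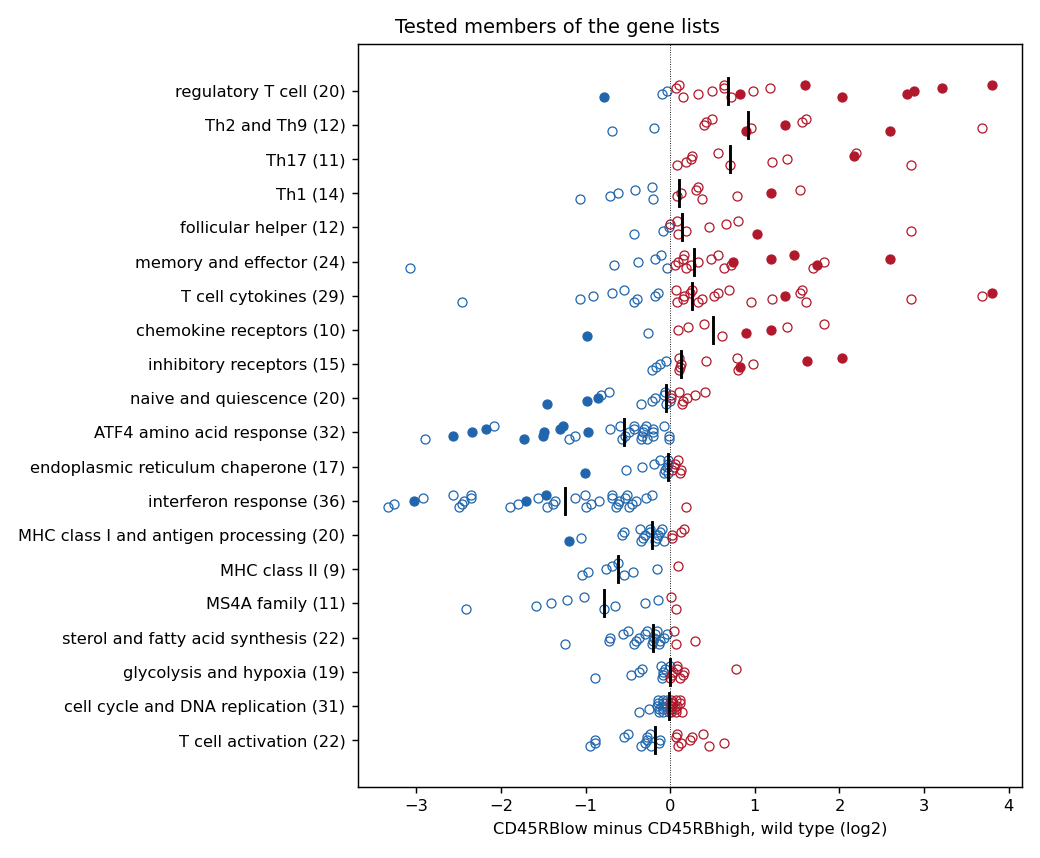
Difference between CD45RBlow and CD45RBhigh wild-type cells (log2, x axis) for the tested members of 20 gene lists, with the number tested in brackets. Each circle is a gene, filled where it passed (adjusted p under 0.05), and the black bar is the list's median; the Th2 and Th9 list has a median of 0.93, the interferon response list one of -1.24, and the cell cycle list stays near 0.

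Some genes differed more between the 2 pairs than between the fractions. Il21, a cytokine of Th17 and follicular helper cells, was at 8.70 and 5.13 in CD45RBhigh and at 9.94 and 9.58 in CD45RBlow cells, so that the CD45RBlow arrays were higher by 1.24 in pair 1 and by 4.45 in pair 2 (difference 2.85, adjusted p = 0.248). Il6 was at 5.29 and 8.38 in CD45RBhigh and at 4.36 and 4.38 in CD45RBlow cells (adjusted p = 0.299). Ccl4, a macrophage-attracting chemokine, was at 7.45 and 9.37 against 8.44 and 7.38, with pairs of opposite sign (adjusted p = 0.888). The pairs also had opposite signs for Tgm2, a protein crosslinking enzyme, at 8.80 and 6.42 against 6.32 and 7.51, and for Tnip3, an inhibitor of NF-kappaB signalling, at 10.75 and 7.71 against 9.50 and 9.40.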

How the data were processed

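Each array was hybridised with cDNA from 200 ng of total RNA, labelled with Affymetrix whole-transcript reagents according to the labels. The authors deposited log2 values for 41034 transcript clusters; Partek and RMA are named in the submitters' processing notes, while versions and options are not given in the sources used here. Because RMA forces one distribution on all arrays, a shift of the whole transcriptome is invisible. Precision is limited by the number of arrays (median standard error of a difference 0.13).

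Platform annotation gave exactly 1 symbol to 23521 clusters, several to 1814 and none to 15699. The brightest cluster, by mean over 8 arrays, stood for a gene. Tested were the 13508 genes that reached the 40th percentile of an array on 2 arrays or more. Limma 3.58.1 in R 4.3.3 was fitted to all 8 arrays with a mean per group and the replicate number as a block (3 residual and 3.83 prior degrees of freedom), two-sided, with Benjamini-Hochberg adjustment over all genes tested and a threshold of 0.05. The labels do not say what the number marks. Deviations of same-numbered arrays correlated at 0.109 to 0.531 over genes in the 6 pairs of groups (0.258 between the wild-type fractions); with 2 arrays a group this does not settle a pairing.

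Genes named are the 15 largest increases and 15 largest decreases among those that passed with a usual symbol and groups that did not overlap, up to 4 called members of each list or else the 2 with the smallest p, a fixed set around the sort and the helper cytokines, and the 5 genes whose pairs differ most; further list members are named to show where a list did not pass, chosen after their values were seen. The comparison, the 29 gene lists and the 11 marker lists were chosen with earlier results of these data known. Lists overlap, and no list was tested. Alternatives were no block, wild-type arrays only, a trended prior, array weights, 2 other filters, the mean of a gene's clusters, median-centred arrays and leaving out each array.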

Additional observations from a re-analysis of the deposited data

How the results depend on the processing

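The 104 called genes became 12 with no replicate block, 311 with wild-type arrays only, 170 with a trended prior variance and 408 with array weights; the 40 called members of pathway lists, among 435 tested, became 6, 94, 62 and 96. Leaving out 1 array at a time gave 4 to 189 genes and 2 to 67 list members. Without a filter on dim genes 97 genes passed, with a 60th percentile filter 116, with the mean over a gene's clusters 122 and with arrays centred on their medians 113, of which 94, 99, 102 and 94 were among the 104. Of the 48 named genes that passed, 0 changed direction in the 16 alternatives. All had a value in each except under the 60th percentile filter, which kept 46. That count of 0 was largely set in advance. Only the mean over a gene's clusters and the fits without a wild-type array could reverse a called difference. The other alternatives left the wild-type difference as it was, or moved it by 0.06 under median centring. Without the block 40 of the 48 no longer passed, which is a matter of the spread, as the difference itself is the same in both fits.

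Sign changes were limited to genes that had not passed. Centring moved Ptprc to 0.057 and Cd4 to 0.036. Over fits without 1 array, the ranges were -0.086 to 0.076 for Ptprc, -0.079 to 0.027 for Cd4, -0.31 to 0.083 for Cd44, -0.045 to 0.18 for Il2ra, -0.13 to 0.27 for Il2, -1.69 to 0.70 for Ccl4, -2.52 to 1.14 for Tgm2, -1.01 to 1.44 for Tnip3, -0.27 to 0.036 for Kdm5d and -0.042 to 0.44 for Eif2s3y.

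Depth does not apply to arrays. With 2 arrays a fraction, differences under about 0.70 were not called at all, and each fit without 1 wild-type array assumes that the lone array varies like the other groups.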

Other observations

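Other called genes, chosen after their values were seen, belong to none of the lists. Cars, the cysteinyl-tRNA synthetase gene, was at 9.60 and 9.74 in CD45RBhigh and at 8.46 and 8.96 in CD45RBlow cells, and fell by 0.96 (adjusted p = 0.0346). Eif4ebp1, which holds back cap-dependent translation, fell by 0.85 (adjusted p = 0.0348). Gtpbp2, a ribosome rescue factor gene, was at 9.17 and 9.54 against 7.89 and 8.26, and fell by 1.28 (adjusted p = 0.0143). Acsl6, a fatty acyl-CoA synthetase gene, fell by 1.31 (adjusted p = 0.0131) on its brightest cluster. A dimmer cluster of it, at a mean level of 4.17, differed by 0.02. Il15ra, which presents interleukin 15, fell by 0.88 (adjusted p = 0.0194). Parp8 and Parp4, of the ADP-ribosyltransferase family, fell by 1.10 and 1.06. Malt1, the paracaspase of antigen receptor signalling, was at 11.13 and 10.78 against 11.87 and 11.71, and rose by 0.83 (adjusted p = 0.0329).

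Amigo2, an adhesion molecule gene, was at 7.61 and 7.78 against 5.07 and 5.41, and fell by 2.46 (adjusted p = 0.00515). Among the decreases of over 1.5 were also Atp8b4, a phospholipid flippase gene (1.68), Epsti1, an interferon-induced gene outside the list (1.59), Ncf1, the p47 subunit of the phagocyte NADPH oxidase (1.58), and Il1rl2, the interleukin 36 receptor gene (1.52).

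Transcript clusters with no symbol here, 11194 above the filter, and those with several symbols, 1274 above it, gave 0 calls each when tested in the same way.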
